A study of Mus musculus with 2 samples.

Results

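The respiratory chain genes are the 98 of 32286 listed mouse genes whose symbols name a subunit of complexes I to V of the mitochondrial inner membrane. They were chosen by symbol alone: 85 nuclear genes beginning with Nduf (followed by a, b, c, s or v and a digit), Sdha to Sdhd, Uqcr, Cox4 to Cox8 or Atp5, and the 13 mitochondrially encoded genes beginning with mt-. The nuclear set held 38 complex I, 4 complex II, 8 complex III, 18 complex IV and 17 complex V genes, and the mitochondrial set 7, 0, 1, 3 and 2. Members of each complex depend on each other as protein, but their RNAs were counted separately here.

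The study sorted lung cells that had switched on the red fluorescent protein tdTomato through Cre recombinase driven by the VE-cadherin promoter, a promoter of endothelial cells, from C57BL/6J mice aged 10 to 12 weeks. Both libraries share the Cre and the tdTomato reporter, and 1 library is labelled aWT and 1 aKO. By its title the series concerns hereditary hemorrhagic telangiectasia 2, a vascular disorder tied to Acvrl1, which encodes a receptor of endothelial cells. The labels give no allele, number of pooled animals or sex. The gene removed in aKO is not named in the labels, so aKO is used here as a label only.

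Oxidative phosphorylation passes electrons from NADH through complex I, or from succinate through complex II, to complex III, cytochrome c and complex IV, where oxygen is reduced, and complex V uses the resulting proton gradient to make ATP. Complexes I, III, IV and V each combine subunits translated in the cytosol with subunits translated inside the mitochondrion, whereas complex II is wholly nuclear. Endothelial cells are known to draw much of their ATP from glycolysis, and their mitochondria are also known for roles in signalling and biosynthesis.

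The 13 mitochondrial genes lie on a compact circular genome, and some of their coding sequences overlap, which limits what a count for a single gene means. These overlaps are shown because the genes of each pair had ratios of opposite sign between the libraries. The first line is the stretch in which mt-Atp8 ends and mt-Atp6 begins (43 bases, positions 7927 to 7969), with the mt-Atp6 start codon in capitals. The others are the 14 bases (13552 to 13565) that the end of mt-Nd5 shares with the end of mt-Nd6 on the opposite strand, each with its stop codon in capitals. The sequences are those of GENCODE M21 transcripts on GRCm38.
mt-Atp8 and mt-Atp6: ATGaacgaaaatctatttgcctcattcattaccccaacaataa
mt-Nd5: ttaatctcgagTAA
mt-Nd6: ttactcgagatTAA
Only mt-Nd6 among the 13 genes is read from the other strand. Whether counting used the strand is not given in the sources used here, so counts of mt-Nd5 and mt-Nd6 may not be fully separate. The genes mt-Atp8 and mt-Atp6 lie on the same strand, so reads within their 43 shared bases could come from either, whatever the counting did with the strand.

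The promoters of nuclear members were searched for the letters AAGATGGC (reverse GCCATCTT) of YY1, a factor known to bind many respiratory chain genes, from 250 bases before to 50 bases after each gene's start and on both strands. RefSeq promoters (GRCm38.p6) were found for 67 of the 85 nuclear members. The letters stood in 9 of them (13.4%), against 3.19% of 27025 genes with a promoter of the same length. Of the 9 genes, 7 belong to complex I, which supplies 38 of the 85 nuclear members. Its share of the 67 with a promoter was not counted. The 4 sites below were chosen to span the ratios of the matched members, from Ndufs4 (log2 ratio of aKO over aWT 0.01) and Ndufs7 (0.45) to Atp5j2 (0.55) and Atp5j (0.63). They are given 5′ to 3′ on the gene's strand with the matched letters in capitals.
Ndufs4 (chr13:114388045-114388074, minus strand): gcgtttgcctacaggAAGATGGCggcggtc
Ndufs7 (chr10:80249462-80249491, plus strand): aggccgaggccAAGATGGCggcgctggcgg
Atp5j2 (chr5:145191500-145191529, minus strand): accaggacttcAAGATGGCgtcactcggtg
Atp5j (chr16:84835046-84835075, minus strand): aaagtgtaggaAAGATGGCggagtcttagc
The match began 35 bases after the gene's start in Ndufs4, 24 after it in Ndufs7, 23 after it in Atp5j2 and 88 before it in Atp5j. In all 9 genes the letters stood on the gene's own strand. In all but Atp5j they began 22 to 38 bases after its start. The letters contain ATG, and whether they overlap a translation start was not tested. Matched members were no more frequent among those at least 1.5-fold higher in aKO (2 of 14) than among those within 1.5-fold (7 of 49). The CCGGAAGT letters of ETS factors (reverse ACTTCCGG) stood in 7.46% of member promoters and 4.31% of all. A match of letters is a description and shows no binding.

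The deposited matrices held 15996 barcodes with 72270260 UMIs (unique molecular identifiers, each standing for 1 captured transcript) for aWT and 11045 barcodes with 75950364 UMIs for aKO. After filtering, 14630 aWT and 10289 aKO cells met the endothelial marker rule, and 234 and 126 cells did not. The libraries shared 48 cell barcodes. Median depth was 3899 UMIs per endothelial cell in aWT and 5774 in aKO. Acvrl1 stood at 1016 CPM (UMIs of the gene per 1000000 UMIs of the summed cells) in aWT and 487 in aKO. Xist stood at 3.57 and 730 CPM, so a difference of sex between the libraries cannot be told apart from the label. Summed epithelial markers were 222 CPM in aWT (led by Sftpc) and 17.5 in aKO, mesenchymal markers 30.4 and 66.4, and immune markers 27.9 and 11.6, with none of the 30 markers at 0 in either library; their part in the results was not tested. Because each group is a single library, replicate spread is unknown, the libraries were compared without a test, and every interval below covers counting error only.

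Nuclear and mitochondrial members differed in opposite directions between the libraries. Nuclear members made up 0.948% of endothelial UMIs in aWT and 1.35% in aKO, a 1.43-fold difference (log2 ratio 0.51, 95% counting interval 0.51 to 0.52). Mitochondrial members made up 2.51% in aWT and 2.11% in aKO (log2 ratio -0.25). Per cell, the median was 35 nuclear member UMIs in aWT and 69 in aKO, against 93 and 100 mitochondrial UMIs. Among UMIs not mitochondrially encoded, the nuclear share was 0.972% in aWT and 1.38% in aKO.

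For single members, 5 CPM were added to both levels and the log2 ratio of aKO over aWT was taken, which understates ratios of low genes. A member counted as measured where either library reached 5 CPM. Of the 85 nuclear members 77 were measured. All 77 had a ratio above 0, against 60.3% of the 11207 genes tested. The 1.5-fold limit was passed by 20 of 77 in the direction of aKO and by 0 in the direction of aWT, against 11.7% and 6.58% of all genes tested. That count moved with the depth of the cells: it was 27 of 77 in cells of at least 8000 UMIs (9.39% of all genes), 8 of 77 at 4000 to under 8000 UMIs (8.99%) and 2 of 77 under 4000 UMIs (12.2%). It was 11 of 77 as a mean over cells (10.7%) and 10 of 77 with classes weighted equally (6.27%). The median over all cells was 0.48, against 0.09 over all genes. Of the 13 mitochondrial members, 0 were at least 1.5-fold higher, 1 was lower, and the median was -0.28.

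**Figure D1:**
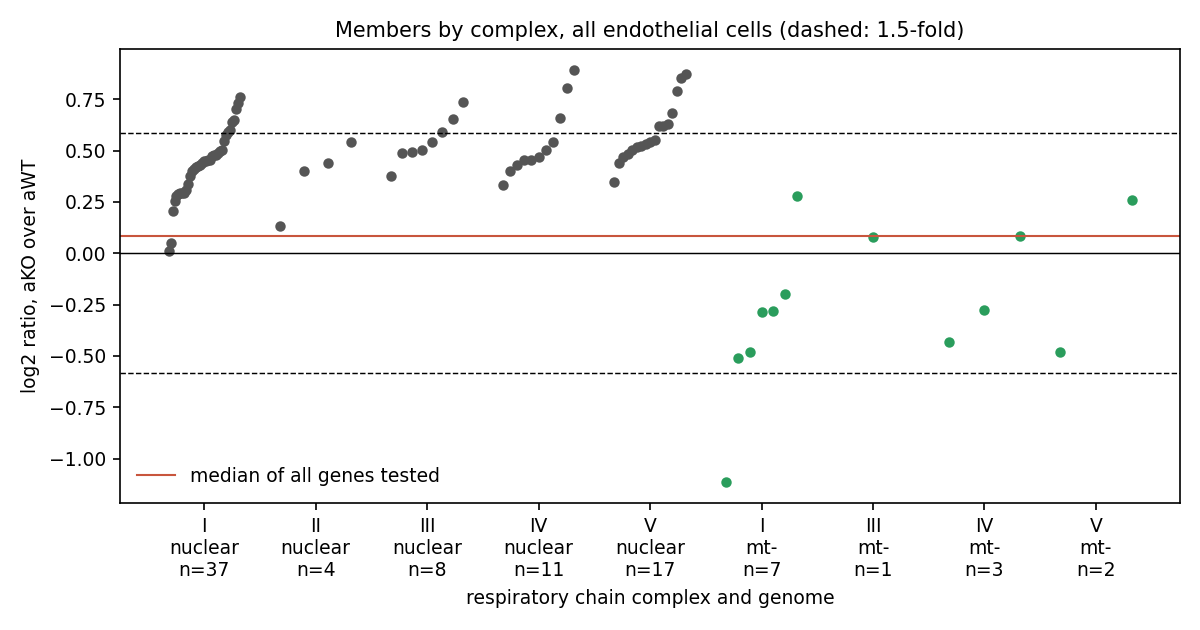
Log2 ratio of aKO over aWT (CPM + 5) of each measured member in all endothelial cells, grouped by complex and genome. Each point is 1 gene, the dashed lines mark 1.5-fold, and the red line is the median of all 11207 genes tested. All nuclear points lie above 0, and 9 of 13 mitochondrial points lie below it.

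In complex I, which oxidises NADH, 37 of 38 nuclear members were measured and 7 were at least 1.5-fold higher, with a median of 0.45. This count, and those of the other complexes below, stand beside 11.7% higher among all genes tested. Ndufs8, an iron-sulfur subunit of the arm that carries electrons towards the membrane, stood at 38.5 CPM in aWT and 68.7 in aKO (log2 ratio 0.76). Ndufa11, a membrane-arm accessory subunit, stood at 87.2 and 148 CPM (0.73). Ndufb1-ps, annotated under a pseudogene symbol, stood at 102 and 170 CPM (0.70). At the other end Ndufs4, an accessory subunit whose loss is used as a mouse model of Leigh syndrome, stood at 132 and 133 CPM (0.01, counting interval of the ratio without pseudocount -0.03 to 0.06). Ndufb3 stood at 99.8 and 103 CPM (0.05), and Ndufa4, named for complex I but now regarded as a complex IV subunit, at 373 and 431 CPM (0.21). The complex therefore did not differ as a block: its members ran from no difference to 0.76.

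The 4 genes of complex II (succinate dehydrogenase), which also belongs to the citric acid cycle, were all within 1.5-fold. Sdha, the flavoprotein, stood at 103 CPM in aWT and 114 in aKO (log2 ratio 0.13). Sdhb, the iron-sulfur subunit, stood at 72.7 and 100 CPM (0.44). The membrane anchors Sdhc and Sdhd stood at 44.5 and 60.3 CPM (0.40) and at 45.9 and 69.1 CPM (0.54). Summed over the 4 genes in all endothelial cells the log2 ratio was 0.37, the smallest of the 5 complexes. It was also the smallest in general capillary, aerocyte and venous cells. In arterial cells it stood just above complex I (0.41 and 0.40), and in lymphatic cells it was the largest (0.42).

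Complex III, which passes electrons from ubiquinol to cytochrome c, had 3 of 8 nuclear members past 1.5-fold. Uqcrc1, a core subunit, stood at 53.8 CPM in aWT and 93.0 in aKO (0.74). Uqcrq stood at 113 and 180 CPM (0.65), and Uqcrfs1, the Rieske iron-sulfur protein, at 49.4 and 76.8 CPM (0.59). The lowest ratios were those of Uqcrc2 (78.4 and 103 CPM, 0.38), Uqcrb (209 and 295 CPM, 0.49) and Uqcrh (189 and 269 CPM, 0.50). The ratios of these 8 genes lay closer together than those of complex I.

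Complex IV, cytochrome c oxidase, has several subunits encoded by isoform pairs, and 7 of its 18 nuclear genes stayed under 5 CPM in both libraries. Of the 11 measured, 3 passed 1.5-fold. Cox6c had the highest ratio of all nuclear members (214 CPM in aWT, 402 in aKO, log2 ratio 0.89). Cox5b followed (136 and 242 CPM, 0.81), then Cox4i1 (327 and 520 CPM, 0.66). The lowest were the X-linked Cox7b (106 and 135 CPM, 0.33), Cox7a2l, a factor of supercomplex assembly (135 and 180 CPM, 0.40), and Cox6a1 (155 and 211 CPM, 0.43).

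The isoform pairs showed the broadly expressed member in both libraries. The remaining broadly expressed isoforms were Cox6b1 (172 and 252 CPM, log2 ratio 0.54), Cox7a2 (217 and 299 CPM, 0.45) and Cox8a (282 and 401 CPM, 0.50). Their partners were near the floor of these summed counts: Cox4i2, an isoform known from lung and from low oxygen, stood at 3.43 CPM in aWT and 1.97 in aKO. Cox6b2 stood at 0.95 and 2.33 CPM, and the muscle isoforms Cox6a2, Cox7a1 and Cox8b at most at 0.86 CPM. Ndufa4l2, the partner of Ndufa4, stood at 0.71 and 0.36 CPM. Among the 5 classes Cox8b reached the 5 CPM limit in lymphatic cells (26 UMIs, 10.2 CPM in aWT; 42 UMIs, 3.18 CPM in aKO), as did Cox6b2 (3.94 and 5.61 CPM).

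Complex V, the ATP synthase, had the largest summed nuclear ratio over all endothelial cells, with 7 of 17 members past 1.5-fold and a median of 0.54. It was also the largest in arterial and venous cells. The largest was complex III in general capillary cells (0.51, complex V 0.46). It was complex IV in aerocytes (0.29, complex V 0.24) and complex II in lymphatic cells (0.42, complex V 0.38). Atp5k (78.3 CPM in aWT and 148 in aKO, log2 ratio 0.87), Atp5e (164 and 301 CPM, 0.85) and Atp5mpl (71.2 and 127 CPM, 0.79) were the highest; these encode small subunits of the enzyme. The lowest were Atp5h, of the peripheral stalk (256 and 327 CPM, 0.35), Atp5c1, the central stalk gamma subunit (136 and 186 CPM, 0.44), and Atp5l (238 and 331 CPM, 0.47). The catalytic subunit gene Atp5b stood at 242 and 352 CPM (0.53). Atp5g1, Atp5g2 and Atp5g3 encode the same mature c subunit but were counted as separate genes, and whether any reads fit more than 1 of them was not tested.

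Within each complex that combines both genomes, the nuclear sum was higher in aKO and the mitochondrial sum was lower, except in complex III. The summed log2 ratios were 0.43 nuclear and -0.30 mitochondrial in complex I, 0.57 and -0.21 in complex IV, and 0.59 and -0.47 in complex V. The single mitochondrial gene of complex III, mt-Cytb, had a ratio of 0.08 beside 0.55 for its nuclear genes. The gap between the genomes was therefore narrowest in complex III and widest in complex V.

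The 13 mitochondrial genes did not move together. In complex I, mt-Nd6 stood at 82.4 CPM in aWT and 35.4 in aKO (log2 ratio -1.11), mt-Nd3 at 319 and 222 CPM (-0.51) and mt-Nd2 at 1305 and 935 CPM (-0.48). Ratios nearer 0 were those of mt-Nd4 (1992 and 1633 CPM, -0.29), mt-Nd1 (1713 and 1408 CPM, -0.28) and mt-Nd4l (264 and 229 CPM, -0.20), and mt-Nd5 was higher in aKO (391 and 476 CPM, 0.28). The neighbours mt-Nd5 and mt-Nd6, which end in the shared 14 bases printed above, thus had ratios of opposite sign. Among the 13 genes mt-Nd6 also had the lowest share of A in its sequence (22.2%), and its longest run of A was the shortest (3 bases). How capture of its RNA bears on this count was not tested.

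Among the other mitochondrial genes, mt-Atp6 stood at 5873 CPM in aWT and 4210 in aKO (-0.48), mt-Co2 at 3398 and 2515 CPM (-0.43) and mt-Co3 at 3960 and 3263 CPM (-0.28). By contrast mt-Co1 (3067 and 3250 CPM, 0.08) and mt-Cytb (2671 and 2818 CPM, 0.08) were slightly higher in aKO, and mt-Atp8 stood at 91.5 and 110 CPM (0.26). The overlapping mt-Atp8 and mt-Atp6 again differed in sign. The heavy-strand genes are transcribed as 1 long precursor, and levels of the RNAs that are cut apart can differ after cutting. Overlapping genes such as mt-Atp8 and mt-Atp6 cannot both be cut out whole, so this does not describe that pair. None of these steps was measured.

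Endothelial classes were set by marker UMIs: the class whose list of 6 markers had the most members with a UMI, with at least 2 and a lead of 1. The aWT and aKO cells were divided into general capillary (8438 and 4160), aerocyte, the gas exchange capillary cell (2354 and 1232), arterial (744 and 573), venous (1465 and 1123), lymphatic (504 and 1721) and not classed (1125 and 1480). Each class carried its own markers in a mean of 65.9% to 86.2% of its cells, and each other class's markers in a mean of at most 43.3%, the general capillary list in aWT venous cells. The rule itself fixed this separation. The mix within a class differed between the libraries. General capillary cells carried aerocyte markers in a mean of 12.6% of cells in aWT and 25.3% in aKO. Venous cells carried them in 7.93% and 16.1%. Aerocytes carried general capillary markers in 20.2% in aWT and 15.6% in aKO. The part of this mix in the ratios by class was not tested. In the cells not classed, with median depths of 2171 UMIs in aWT and 3278 in aKO, the nuclear share was 0.867% and 1.36% and the mitochondrial share 3.02% and 2.38%. There 48 of 78 measured nuclear members were at least 1.5-fold higher, against 12.4% of all genes, and 1 was lower, against 11%.

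The nuclear share was higher in aKO in all 5 classes. It was 0.904% in aWT and 1.23% in aKO in general capillary cells (log2 ratio 0.44), 0.952% and 1.11% in aerocytes (0.22), 1.10% and 1.51% in arterial cells (0.46), 1.03% and 1.60% in venous cells (0.64) and 1.12% and 1.40% in lymphatic cells (0.32). The mitochondrial share was lower in aKO in all 5 classes. It was 2.54% and 2.01% in general capillary cells (-0.34), 2.04% and 1.63% in aerocytes (-0.33), 2.92% and 2.69% in arterial cells (-0.12), 2.75% and 2.44% in venous cells (-0.17) and 2.02% and 1.80% in lymphatic cells (-0.16). The nuclear ratio therefore lay above the mitochondrial one in 5 of 5 classes.

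**Figure D2:**
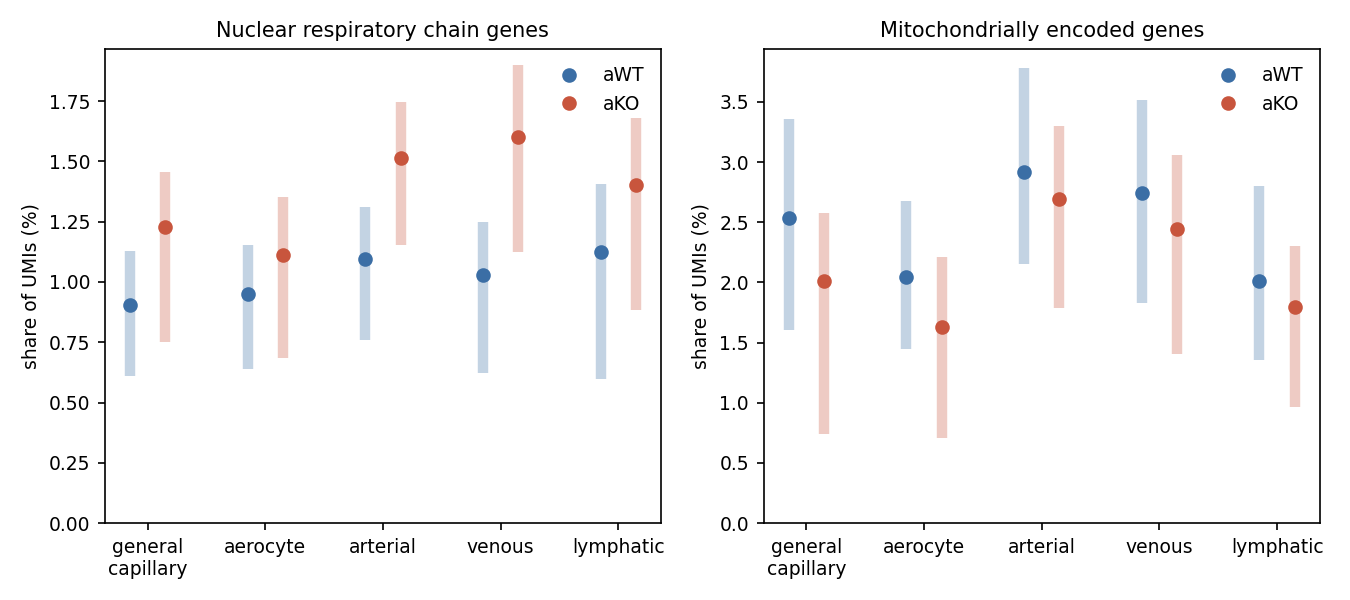
Share of all UMIs (percent) of nuclear (left) and mitochondrially encoded (right) members by endothelial class and library. Points are shares of the summed UMIs and shaded bars run from the lower to the upper quartile over cells, which are not replicates. Nuclear points are higher in aKO and mitochondrial points lower in every class, with wide overlap of the cells.

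The order of the classes differed between the libraries for nuclear members. In aWT general capillary cells had the lowest nuclear share and lymphatic cells the highest (interval 1.11% to 1.14%), just above arterial cells (1.09% to 1.11%). In aKO aerocytes had the lowest and venous cells the highest. For mitochondrial members arterial, venous and general capillary cells followed in the same descending order in both libraries. Aerocytes and lymphatic cells had the lowest mitochondrial shares in both, in opposite order. Class depth differed as well: median UMIs in aKO were 9576 in venous and 9413 in arterial cells, against 5139 and 5162 in aWT, while aerocytes stood at 5261 and 4507.

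Counts of single nuclear members past 1.5-fold in the direction of aKO varied widely between classes. Venous cells had 46 of 77 (median 0.63), against 13.8% of all genes tested. Arterial cells had 19 of 77 (median 0.46), against 9.85%. General capillary cells had 13 of 77 (median 0.42), against 9.19%. Lymphatic cells had 3 of 79 (median 0.35), against 5.52%, and aerocytes had 1 of 77, Uqcrc1 (median 0.20), against 7.13%. In aerocytes and lymphatic cells the share of members was below that of all genes. Members at least 1.5-fold lower numbered 0 in venous, arterial, general capillary and aerocyte cells, against 9.09%, 9.62%, 6.17% and 4.53% of all genes, and 1 in lymphatic cells, Cox8b, against 5.70%.

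**Figure D3:**
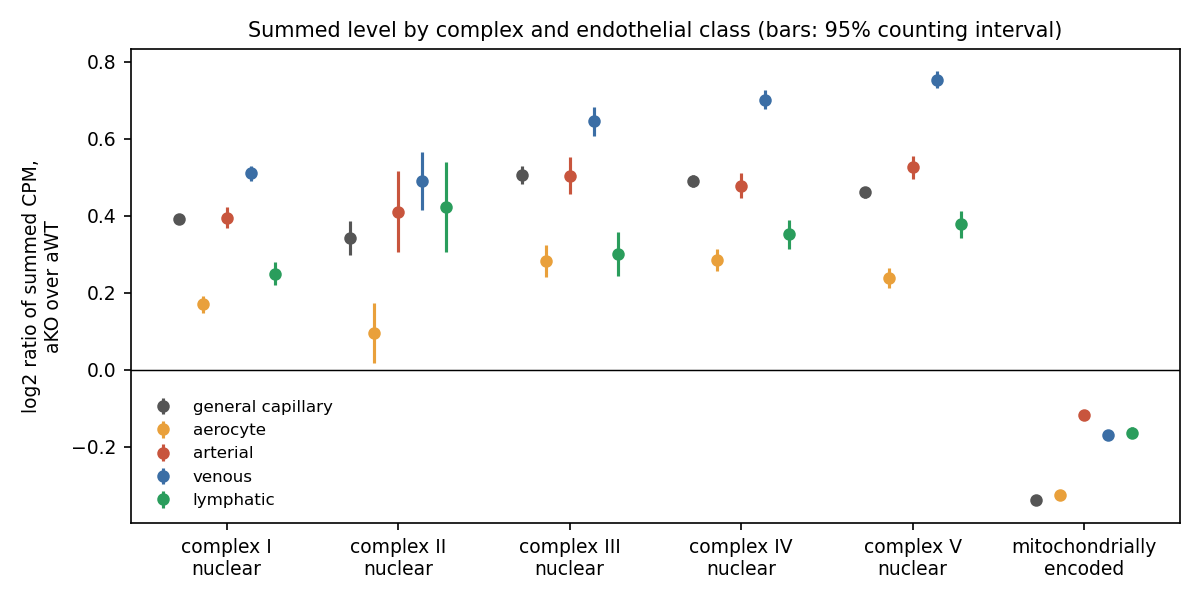
Log2 ratio of summed CPM, aKO over aWT, for nuclear members of each complex and for mitochondrially encoded members, by endothelial class, with 95% counting intervals. Venous cells have the highest and aerocytes the lowest ratio in each nuclear complex, and every mitochondrial sum lies below 0. Depth was not matched between the libraries, and in venous cells its median was 5139 UMIs in aWT and 9576 in aKO.

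In venous cells the summed nuclear log2 ratio was 0.51 for complex I, 0.49 for complex II, 0.65 for complex III, 0.70 for complex IV and 0.75 for complex V. In aerocytes the same ratios were 0.17, 0.10, 0.28, 0.29 and 0.24. Cox5b shows the span between classes: it stood at 142 CPM in aWT and 306 in aKO venous cells (1.08), at 148 and 250 CPM in lymphatic cells (0.73) and at 148 and 196 CPM in aerocytes (0.39). Sdha varied little, from -0.03 in aerocytes to 0.19 in lymphatic cells.

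Of the 77 nuclear members measured in every class, 68 had a ratio above 0 in all 5 classes, against 25.6% of 9471 genes. The 9 with mixed signs were Ndufa4, Ndufa8, Ndufb3, Ndufc1, Ndufc2, Ndufs4, Ndufs6, Sdha and Cox7a2l. Of these 7 were named as complex I genes, Ndufa4 among them, and complex I supplies 38 of all 85 nuclear members. Of the 13 mitochondrial members 9 were below 0 in all 5 classes, against 15.5% of genes. Those above 0 in all 5 were mt-Nd5 and mt-Cytb, and mt-Co1 and mt-Atp8 had mixed signs.

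**Figure D4:**
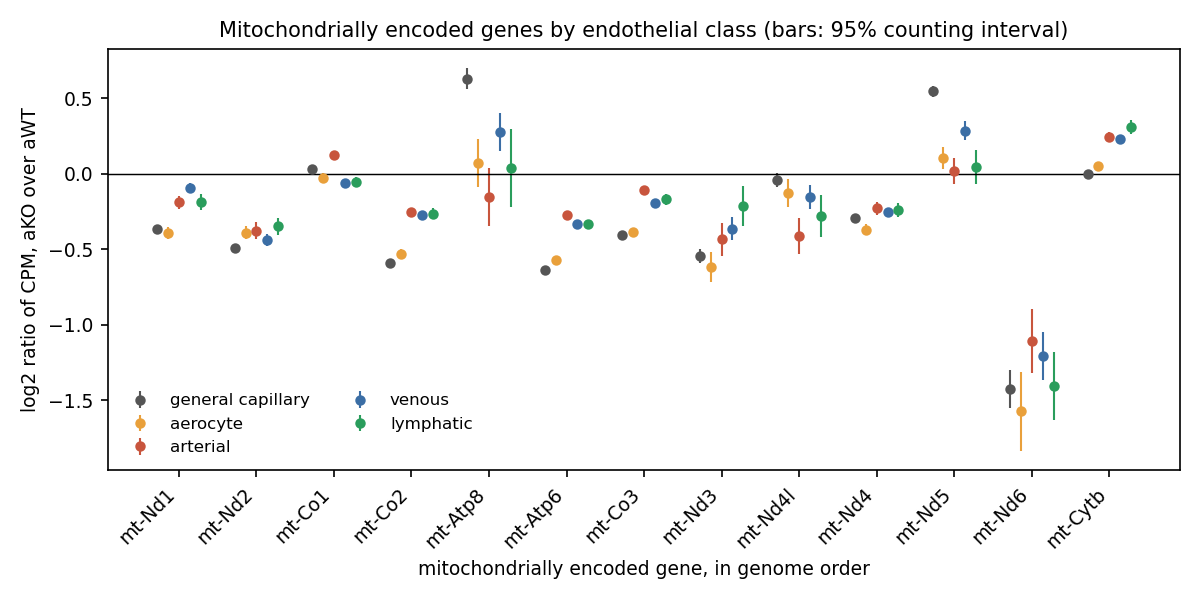
Log2 ratio of CPM, aKO over aWT without pseudocount, of the 13 mitochondrially encoded genes in genome order, by endothelial class, with 95% counting intervals. The mt-Nd6 ratios are the lowest in every class, while mt-Atp8 and mt-Nd5 are highest in general capillary cells.

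General capillary cells held the mitochondrial genes farthest from each other. There mt-Nd6 stood at 76.9 CPM in aWT and 28.6 in aKO (log2 ratio -1.28), mt-Atp6 at 6035 and 3874 CPM (-0.64) and mt-Co2 at 3463 and 2301 CPM (-0.59), while mt-Atp8 stood at 95.7 and 148 CPM (0.60) and mt-Nd5 at 388 and 567 CPM (0.54). These were 3 members at least 1.5-fold lower, against 6.17% of all genes, and 1 higher. In the other classes mt-Nd6 had log2 ratios of -1.38 (aerocyte), -1.04 (arterial), -1.12 (venous) and -1.29 (lymphatic).

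Differences between classes that held in both libraries were few. In a single library they could be more: in aerocytes 1 nuclear member was lower in aWT and 6 in aKO. The median ratio of nuclear members in aerocytes against the other classes was 0.04 in aWT and -0.27 in aKO. The share of all genes was not computed for single libraries. With each class set against the 4 others, members at least 1.5-fold apart in the same direction in both libraries numbered at most 2 per class and direction. The shares of all genes that did so (higher, then lower) were 3.42% and 8.29% for general capillary cells, 6.68% and 13.1% for aerocytes, 7.37% and 8.94% for arterial, 4.65% and 6.33% for venous, and 11.7% and 11.2% for lymphatic cells. Ndufc2 was higher in lymphatic cells (442 CPM against 149 in the other classes of aWT, 397 against 191 in aKO). Ndufa8 was higher in venous cells (227 against 102 CPM and 249 against 121 CPM). Cox7a2l was higher in arterial cells (211 against 128 CPM and 292 against 164 CPM) and lower in aerocytes (86.1 against 146 CPM and 106 against 185 CPM). Uqcrh was higher in arterial cells (287 against 181 CPM and 417 against 248 CPM), and mt-Atp8 was lower in lymphatic cells (58.3 against 91.8 CPM and 59.8 against 123 CPM). General capillary cells had no such member in either direction.

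Both shares moved with the depth of the cell, in different ways in the libraries. In general capillary cells with 1000 to 2000 UMIs the nuclear share was 0.628% in aWT and 0.586% in aKO. At 2000 to 4000 UMIs it was 0.923% and 0.985%, at 4000 to 8000 UMIs 0.925% and 1.24%, and at 8000 to 16000 UMIs 0.840% and 1.35%. In this class the nuclear share was thus slightly lower in aKO in the shallowest of these bands. The aKO share was higher by the widest margin in the deepest band. The mitochondrial share ran the other way, at 3.58% and 1.19%, 2.72% and 1.87%, 2.37% and 1.97%, and 2.23% and 2.15% over the same 4 bands. Other classes differed. At 1000 to 2000 UMIs the nuclear share was higher in aKO in aerocytes (0.518% and 0.882%) and venous cells (0.601% and 1.01%, 47 aKO cells). It was lower in lymphatic cells (1.05% and 0.677%) and arterial cells (0.856% and 0.383%, 10 aKO cells). In venous cells the nuclear share was 0.824% and 1.31% at 2000 to 4000 UMIs and 1.06% and 1.36% at 4000 to 8000 UMIs. At 8000 to 16000 UMIs the venous values were 1.08% and 1.63%. Relative to aWT, the venous margin was wider than that of general capillary cells at 2000 to 4000 UMIs. It was narrower in the deeper bands given. Aerocyte mitochondrial shares were 3.34% and 1.80%, 2.49% and 2.21%, 1.94% and 1.64%, and 1.63% and 1.34% over these bands. They did not approach each other further above 2000 UMIs.

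**Figure D5:**
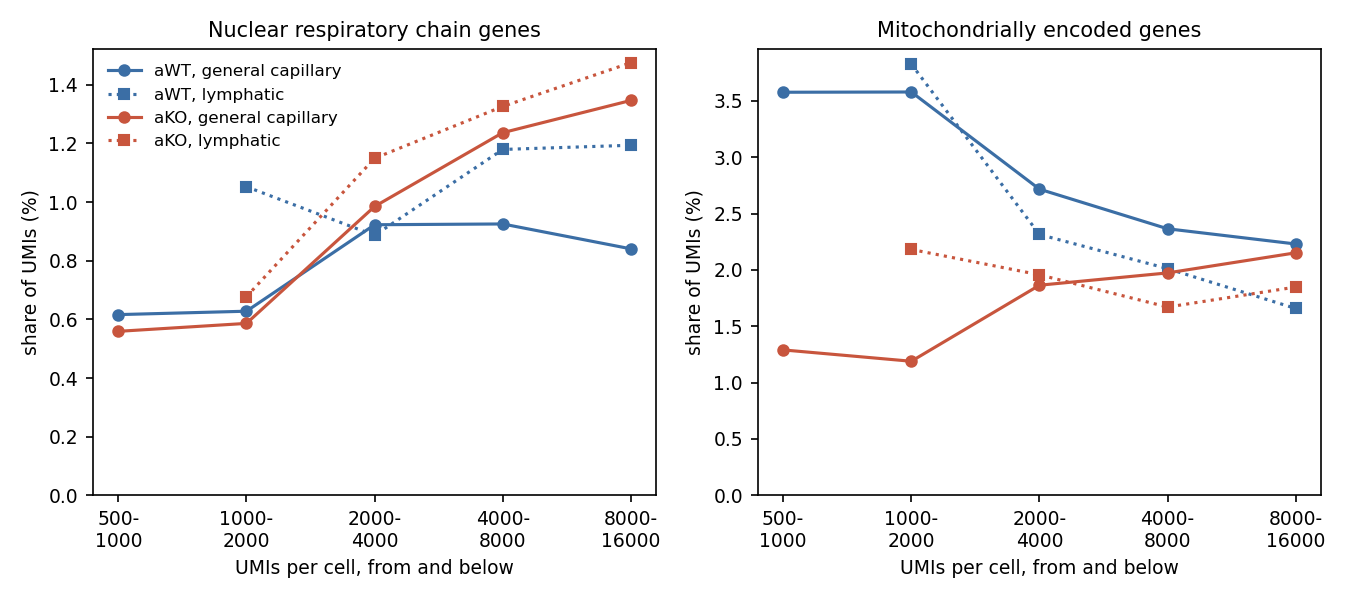
Share of all UMIs (percent) of nuclear (left) and mitochondrially encoded (right) members in general capillary and lymphatic cells, by band of UMIs per cell, for bands with at least 50 cells. The libraries part in nuclear share from 4000 UMIs upwards in general capillary cells, and their mitochondrial shares approach each other with depth.

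Over all endothelial cells the summed nuclear log2 ratio was 0.13 in cells under 4000 UMIs, 0.36 at 4000 to under 8000 UMIs and 0.55 at 8000 UMIs or more, and the mitochondrial one -0.59, -0.26 and -0.02. The deep group held 1094 aWT and 3049 aKO cells. In it mt-Nd6 still had a log2 ratio of -0.99 (88.8 and 42.3 CPM) and mt-Cytb one of 0.34 (2302 and 2917 CPM), while mt-Nd1 and mt-Co3 were at -0.01 each. In lymphatic cells of 8000 to 16000 UMIs the mitochondrial share was higher in aKO (1.66% and 1.85%), the reverse of all lymphatic cells together. Cells with under 0.5% mitochondrial UMIs were 3.49% of aWT (510 cells, interval 3.19% to 3.80%) and 15.4% of aKO endothelial cells (1587 cells, 14.7% to 16.1%), with median depths of 1853 and 2426 UMIs. Without them the nuclear ratio was 0.54 and the mitochondrial one -0.18. The part of depth in these differences was not tested further.

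Other gene groups that moved with the nuclear members are given here as values, and their part in the result was not tested. Of the cytosolic ribosomal protein genes, 52 of 84 measured were at least 1.5-fold higher in aKO over all endothelial cells (median 0.66), against 11.7% of all genes tested. Their share of UMIs was 4.43% in aWT and 7.01% in aKO. By class their summed log2 ratio was 0.36 in general capillary, 0.56 in venous and 0.31 in lymphatic cells, below that of the nuclear members, and 0.42 in aerocytes and 0.61 in arterial cells, above it. Malat1, an RNA kept in the nucleus, made up 3.95% of endothelial UMIs in aWT and 2.69% in aKO. Its share was lower in aKO in all 5 classes, from 4.24% and 3.52% in aerocytes to 3.29% and 1.94% in venous cells. Mitochondrial ribosomal protein genes differed less, with 7 of 78 higher (median 0.27), a share below the 11.7% of all genes tested. Nuclear members span a median of 7456 bases against 26330 for all genes tested, and the ratio fell with span across 11199 genes (Spearman's rho -0.21, across genes, which are not independent). With that trend removed, 11 of 77 nuclear members passed 1.5-fold, against 10.9% of genes. Then 5 of 13 mitochondrial members were lower, against 6.48% of genes.

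Assembly factors of the respiratory complexes did not follow the subunits: 3 of 43 measured were at least 1.5-fold higher, 0 lower, and the median was 0.12. Uqcc2, a complex III factor, stood at 48.4 CPM in aWT and 77.8 in aKO (0.63), and Sco2, a copper chaperone of complex IV, at 8.41 and 15.3 CPM (0.60); Timmdc1 (29.2 and 23.4 CPM, -0.27) and Nubpl (25.8 and 21.5 CPM, -0.22), both complex I factors, were lowest. Genes that copy, transcribe and translate mitochondrial DNA had 0 of 18 past 1.5-fold in either direction (median 0.10). Tufm, a mitochondrial elongation factor, stood at 9.57 and 16.4 CPM (0.55) and Slirp, an RNA-binding partner of mitochondrial mRNAs, at 38.3 and 55.6 CPM (0.48). Polg2, the accessory subunit of the mitochondrial DNA polymerase, stood at 22.8 and 14.3 CPM (-0.53) and Ssbp1 at 49.3 and 47.7 CPM (-0.05).

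A list of electron carriers, inner membrane carriers and small accessory proteins of the chain had 5 of 14 higher and 1 lower (median 0.38). Ucp2, an uncoupling protein homologue, stood at 142 CPM in aWT and 286 in aKO (0.99), and Slc25a3, the phosphate carrier, at 158 and 297 CPM (0.89). The lower member, Chchd10, a protein of the intermembrane space that carries neither electrons nor solutes, stood at 14.4 and 3.76 CPM (-1.15), and Etfdh was the next lowest at 20.3 and 23.5 CPM (0.17). Regulators of mitochondrial biogenesis had 2 of 12 higher and 1 lower (median 0.03), shares near those of all genes tested. Myc stood at 3.76 and 19.3 CPM (1.47) and was above 0 in all 5 classes. Ppargc1a, a coactivator that drives mitochondrial gene expression, stood at 8.37 and 2.76 CPM (-0.78), with -1.29 in general capillary but 0.21 in venous cells, and Sirt1 at 39.7 and 27.7 CPM (-0.45). Ppargc1b reached 0.65 over all cells (1.74 and 5.60 CPM), though no class exceeded 0.19.

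Of the citric acid cycle genes 1 of 18 was higher and 0 lower (median 0.30): Idh3a stood at 20.4 and 33.4 CPM (0.60), Idh3g at 35.8 and 53.3 CPM (0.52), Idh2 at 53.2 and 49.7 CPM (-0.09) and Suclg2 at 47.1 and 48.2 CPM (0.03). Glycolytic genes had 6 of 15 higher and 0 lower (median 0.38), led by Gapdh (107 and 255 CPM, 1.22) and Eno1 (22.5 and 51.4 CPM, 1.03), with Pfkfb3 (36.8 and 27.4 CPM, -0.37) and Pfkm (7.35 and 7.23 CPM, -0.01) lowest. Antioxidant genes had 2 of 10 higher and 0 lower (median 0.20): Gpx1 stood at 70.0 and 186 CPM (1.35) and Gpx4 at 165 and 256 CPM (0.62), against Sod1 at 108 and 76.4 CPM (-0.47) and Cat at 40.7 and 39.4 CPM (-0.04). Genes of mitochondrial dynamics and mitophagy had 2 of 19 higher and 0 lower (median 0.16), Pink1 (26.2 and 53.1 CPM, 0.90) and the fission adaptor Fis1 (119 and 219 CPM, 0.86), while Bnip3 (20.5 and 14.5 CPM, -0.39) and Yme1l1 (96.9 and 85.4 CPM, -0.17) were lowest. Each of these counts stands beside 11.7% higher and 6.58% lower among all genes tested.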

How the data were processed

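Lung cells sorted for tdTomato were sequenced as 2 libraries, 1 per group, and the sample titles gave the groups. The matrices deposited by the authors hold raw UMI counts of each gene in each barcode. The submitters' processing notes name Cell Ranger 7.2.0 and mm10, and the labels' protocols name 10x 3' chemistry. For the annotation release and the use of intronic reads, nothing is given in the sources used here. From these counts, barcodes were kept that had 500 genes or more and no more than 15% mitochondrial UMIs (15651 aWT, 10785 aKO). Scrublet (scanpy 1.11.5, per library, expected rate 0.8% per 1000 barcodes) called 787 (5.03%) and 370 (3.43%) of them doublets, which were removed. A cell was called endothelial with UMIs of at least 3 of 10 endothelial markers and of more of them than of the epithelial, immune or mesenchymal list. UMIs were summed per class and library to give CPM. Intervals at 95% are exact (Clopper-Pearson for shares, Poisson for CPM, conditional binomial for ratios).

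The size rule was a 1.5-fold ratio after adding 5 CPM, among genes reaching 5 CPM in 1 library. The script was checked on simulated counts, which hold no variation beyond counting and so say nothing of replicate spread. Genes named were all mt- and Sdh genes, the 3 highest and 3 lowest nuclear members per complex, isoform pairs, and the 2 highest and 2 lowest of each other list. Atp5b, Atp5g1, Atp5g3, the members with promoter sites, members that set a class apart or had mixed signs, Ppargc1b, and Cox5b by class were chosen after their values were seen. Members and gene lists were chosen with earlier results of these data known. Gene spans and mitochondrial sequences came from GENCODE M21. Alternatives changed scaling (TMM factors from edgeR 4.0.16), cell filters, doublets, depth, class rules, pseudocount and minimum. Python 3.11.15, numpy 2.4.6 and scipy 1.17.1 were used.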

Additional observations from a re-analysis of the deposited data

Results flagged for a closer look

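With 1 library per group, 5 members had log2 ratios of aKO over aWT (without pseudocount) whose counting intervals lay wholly above 0 in some classes and wholly below 0 in others. They come from the 77 nuclear and 13 mitochondrial members measured in every class. The share of all genes that do the same was not computed, so this number has no reference beside it. The difference between the classes was not tested, and replicate spread is unknown. Ndufb3 stood at -0.34 in aerocytes and 0.34 in venous cells. Ndufa8 stood at -0.16 in aerocytes, against 0.65 in arterial, 0.29 in general capillary and 0.13 in venous cells. Ndufc2, which was highest in lymphatic cells in both libraries, stood at -0.16 there, against 0.28 in arterial, 0.44 in general capillary and 0.29 in venous cells. Cox7a2l also stood below 0 in lymphatic cells (-0.18), against 0.30 in aerocytes, 0.47 in arterial, 0.30 in general capillary and 0.25 in venous cells. The ratios of mt-Co1 were close to 0 throughout, at 0.13 in arterial and 0.036 in general capillary cells, and at -0.055 in lymphatic and -0.058 in venous cells.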

How the results depend on the processing

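No paired analysis was possible because each group has 1 library. Both sums were taken again under 17 alternatives. In all endothelial cells the nuclear sum stayed above 0 and the mitochondrial sum below it under each. A class rule by summed marker UMIs does not change which cells are endothelial, so it could not alter these sums. The nuclear ratio lay above the mitochondrial one in 5 of 5 classes under each. Other scaling, including TMM factors, shifts both ratios of a class alike, and equal class weights leave each class unchanged. Those settings could therefore not alter the count of classes. Against log2 ratios of 0.51 (nuclear) and -0.25 (mitochondrial), the values were 0.51 and -0.26 scaled to UMIs not mitochondrially encoded, 0.55 and -0.22 also without ribosomal protein genes, 0.49 and -0.28 with TMM factors, 0.42 and -0.45 as a mean over cells, 0.43 and -0.21 with classes weighted equally, 0.51 and -0.22 at 1000 genes per cell, and 0.44 and -0.30 after thinning to 2000 UMIs (2313 aWT and 1438 aKO cells left out). Without a mitochondrial limit the mitochondrial ratio was -0.24. The next were added after seeing the data: 0.55 and -0.024 in cells of at least 8000 UMIs, 0.36 and -0.26 at 4000 to under 8000, 0.13 and -0.59 under 4000, and 0.54 and -0.18 without cells under 0.5% mitochondrial UMIs. At 8000 UMIs or more the mitochondrial ratio turned to 0.032 in arterial and 0.17 in lymphatic cells, and under 4000 UMIs Atp5g2 turned to -0.14. The cause was not tested.

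Nuclear members at least 1.5-fold higher numbered 20 of 77 (11.7% of all genes). They numbered 27 in cells of at least 8000 UMIs (9.39%), 8 at 4000 to under 8000 UMIs (8.99%), 2 under 4000 UMIs (12.2%), 11 as a mean over cells (10.7%), 10 with equal class weights (6.27%), 12 thinned (10.9%) and 11 with the span trend removed (10.9%); at 2-fold there were 0 (4.21%). Under the other alternatives they numbered 17 to 22. Mitochondrial members lower numbered 1 (6.58% of all genes). They numbered 5 as a mean over cells (5.78%), 5 with the span trend removed (6.48%) and 7 under 4000 UMIs (6.21%). Mitochondrial genes span 204 to 1824 bases, against a median of 26330 for the genes fitted, so they lie at the short end of that trend.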

Other observations

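Cells with UMIs of at least 3 of 6 cycling markers numbered 23 in aWT and 153 in aKO. Their median depths were 12192 and 17485 UMIs, their nuclear shares 1.13% (interval 1.09% to 1.17%) and 1.66% (1.64% to 1.67%), and their mitochondrial shares 2.75% and 2.53%.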
